A study of Mus musculus with 6 samples.

Results

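Arachidonic acid is a fatty acid held in cell membranes, and the enzymes that release and oxidise it make the lipid signals known as eicosanoids. The genes described here are 43 such enzymes and receptors, taken as a fixed list of the phospholipases that release the fatty acid, the cyclooxygenases and prostanoid synthases, the lipoxygenases, the cytochrome P450 and epoxide enzymes, and the receptors for prostaglandins. All 43 had at least 1 probe on the arrays, of 21368 genes that could be named. They were measured in melanocyte stem cells of the skin of male mice, 3 samples of WT and 3 of K14-SCF Tg, with 1 single-colour Agilent array per sample. In K14-SCF Tg mice keratinocytes make stem cell factor, which activates the receptor KIT on melanocytes, from the keratin 14 promoter, so the transgene is driven in the neighbours of the sorted cells. Both genotypes were sorted alike, as GFP-positive cells with low side scatter. What drives the GFP, the age of the mice and whether samples held pooled animals are not given in the sources used here. The labels number the samples without naming separate animals, so the p-values speak of the spread among these 6 samples alone, and that spread may be technical.

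In the cyclooxygenase branch, PTGS enzymes turn arachidonic acid into an unstable prostaglandin, which a set of synthases then makes into prostaglandin E2, D2 or F2, prostacyclin or thromboxane. Each product acts on its own receptors at the cell surface. In the lipoxygenase branch, leukocytes make leukotrienes, while the epidermis uses its own lipoxygenases to build the skin barrier. Prostaglandins and leukotrienes are known to act on melanocytes in inflamed skin, and keratinocytes, mast cells and fibroblasts of the skin make them too.

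Levels are log2 of the signal of a gene's brightest probe over the array's 75th percentile, so that 0 means a signal equal to that percentile. A level belongs to its probe, and levels of different genes are not ranked. A summed level is log2 of the linear signals of a list's markers added together, so the markers with the brightest probes weigh most. Values of WT come before those of Tg and are given in the order of replicates 1 to 3, and log2 fold changes give Tg relative to WT (above 0: higher in Tg) with a standard error (SE). Between 78.4% and 87.1% of the 55681 probes passed the scanner software's test of being well above background, depending on the array, and 0 spots were saturated. Of the melanocyte markers, 10 of 10 were well above background on all 6 arrays. Their summed level lay between 8.13 and 8.53 in WT and between 8.07 and 8.33 in Tg. Such detection was common: 16168 of the 21368 named genes had a probe above background on all 6 arrays. The list holds markers of melanocytes, and stem cells were not told apart by it. Ednrb, a gene of the list, was lower on all 3 Tg arrays (log2 fold change -0.65, SE 0.21, limma adjusted p = 0.823). WT replicate 3 and Tg replicate 3, the 2 arrays in row 2 of the slide, lay apart from the others on the first principal component (25.9% of the variance), and WT replicate 1 was alone on its slide. Values without these arrays are given for the genes they move most. Markers of other cells were measured too. Above background on all 6 arrays were 7 of 8 basal and follicle keratinocyte markers and 7 of 10 fibroblast markers. The same held for 11 of 12 leukocyte and 9 of 10 endothelial markers.

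The promoters of 3 members described below are shown: Hpgds and Pla2g10 did not overlap between the genotypes, and Ptgds is the other prostaglandin D synthase. They are the 250 bases before the start of the gene in RefSeq (build GRCm38.p6), at chr6:65144731-65144980, chr16:13730485-13730734 and chr2:25469750-25469999, all on the minus strand and written 5′ to 3′ along the gene. Capitals mark the E-box motifs CACGTG and CATGTG on either strand, which MITF, the master regulator of melanocytes, is known to bind.
Hpgds: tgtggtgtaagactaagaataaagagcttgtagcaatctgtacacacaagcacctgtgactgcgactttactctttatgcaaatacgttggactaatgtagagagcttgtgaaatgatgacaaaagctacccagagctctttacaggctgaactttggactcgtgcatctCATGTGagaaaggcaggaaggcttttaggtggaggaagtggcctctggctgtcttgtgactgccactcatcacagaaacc
Pla2g10: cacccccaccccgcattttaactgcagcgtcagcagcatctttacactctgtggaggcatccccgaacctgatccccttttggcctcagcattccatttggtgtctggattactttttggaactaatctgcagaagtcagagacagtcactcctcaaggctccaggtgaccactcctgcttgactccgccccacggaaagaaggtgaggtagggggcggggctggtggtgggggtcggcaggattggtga
Ptgds: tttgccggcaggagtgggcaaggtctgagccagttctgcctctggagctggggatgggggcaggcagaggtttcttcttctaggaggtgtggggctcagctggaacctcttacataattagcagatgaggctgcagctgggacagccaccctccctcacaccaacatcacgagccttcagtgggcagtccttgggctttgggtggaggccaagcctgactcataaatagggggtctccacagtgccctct
The Hpgds window held 1 CATGTG, which begins 80 bases before the start, and the Pla2g10 and Ptgds windows held 0 of either motif. Of the 43 members, 36 had a promoter in the table. CATGTG occurred in 6 of them (16.7%: Cyp4f18, Ggt1, Hpgds, Pla2g4a, Pla2g5 and Pla2g6) and in 12.3% of all 32851 promoter windows. CACGTG occurred in 2 (5.56%: Cyp2j6 and Ptges2) and in 6.02% of all windows. Shares of members count genes with a match in any of their windows, whereas shares of all windows count single windows, so their units differ. A match describes the letters only.

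Of the 43 genes, 29 were well above background on all 6 arrays and 4 on no array (Alox8, Ptgdr, Ptger2 and Ptgfr). The steps of the pathway differed in this: all 8 phospholipases, all 10 prostanoid synthases and all 4 P450 and epoxide genes were measured on at least 3 arrays and could be tested, but only 3 of the 7 receptors and 1 of the 2 cyclooxygenases. In all, 34 members were tested and 9 were not. A gene not above background on these arrays may still be expressed at a low level, and in bulk samples fewer cells of a type and less RNA per cell cannot be told apart.

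**Figure D1:**
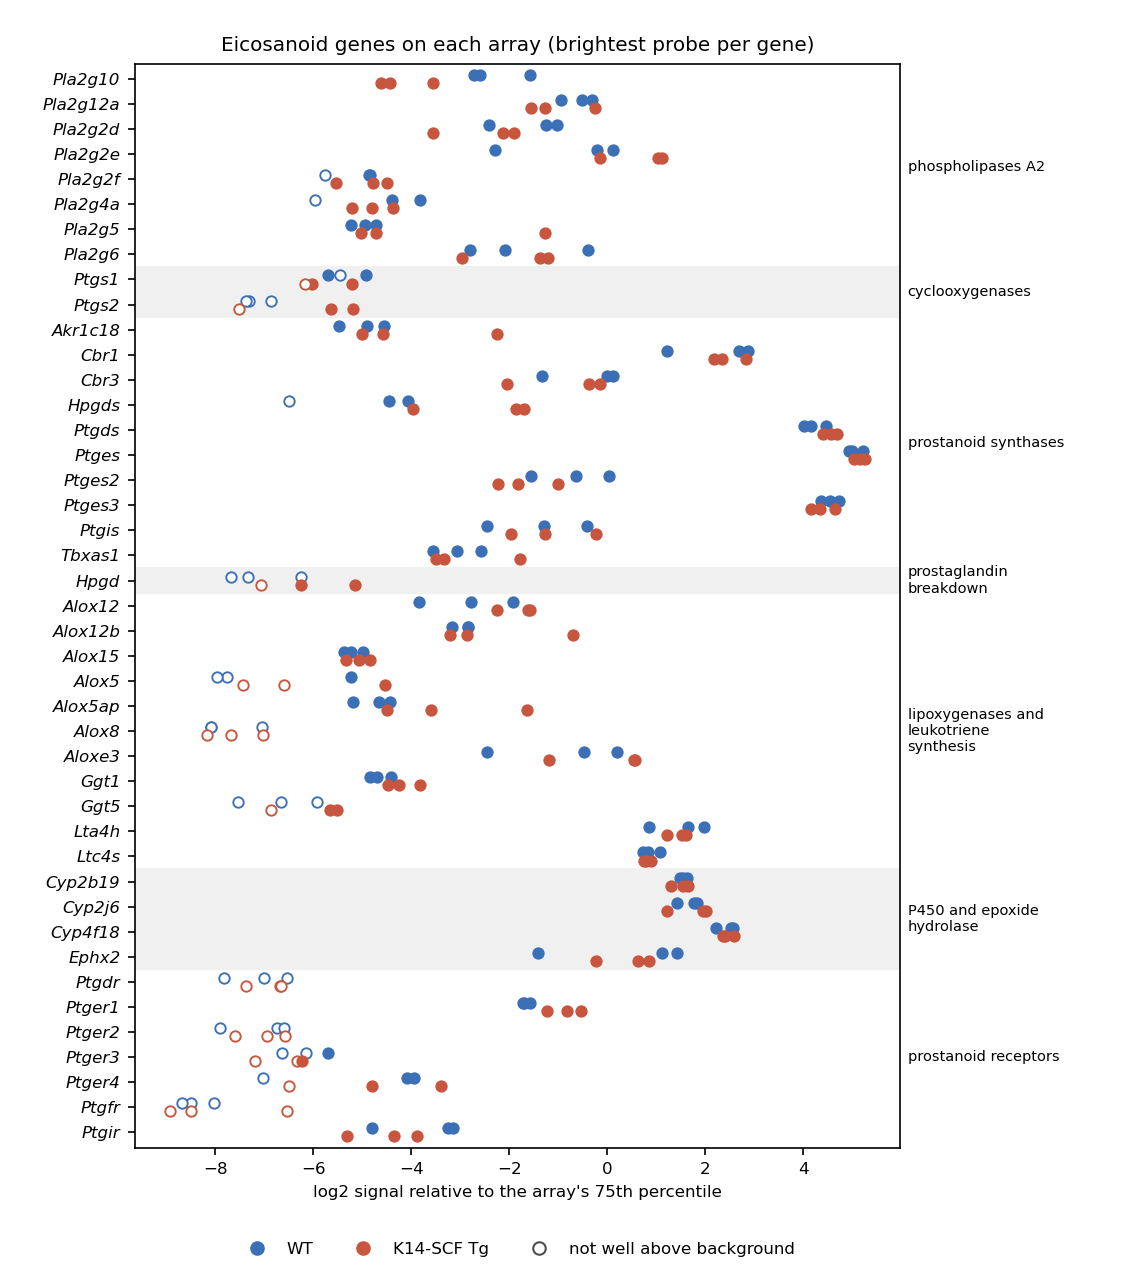
Level of each of the 43 genes on each array (log2 signal over the array's 75th percentile), grouped by step of the pathway; blue points are the 3 WT and red points the 3 K14-SCF Tg arrays, and open points were not well above background. At their brightest probes the prostanoid synthases Ptgds, Ptges and Ptges3 lie between 4.0 and 5.26 on every array, and 4 genes, 3 of them receptors, have only open points.

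No member was called between the genotypes. By limma, 0 of 34 were higher and 0 lower at an adjusted p under 0.05 (adjusted p between 0.619 and 1.00), where 0.00544% of all 18368 tested genes were called higher (1 gene, Hpse, no member) and 0% lower. At an unadjusted p under 0.05, limma gave 2 members higher and 1 lower, 8.82% of the members, beside 5.41% of all genes (2.85% higher and 2.56% lower). The values of the genotypes did not overlap in the same 3 genes: Hpgds and Ptger1 were higher in Tg on every array (5.13% of all genes), and Pla2g10 was lower (5.41% of all genes, and 10.5% in either direction). Log2 fold changes were positive in 21 of 34 members (61.8%, 48.6% of all genes), with a median of 0.11 beside -0.01 over all genes. They were past 2-fold in 7 members (20.6%, 11.3% of all genes). The spread within a genotype was also larger in the members, with a median SD of 0.72 against 0.49 over all genes. Of the 7 members past 2-fold, Hpgds and Pla2g10 did not overlap, and the share among all genes past 2-fold was not counted. Over all tested members, 8.82% did not overlap, no more than the 10.5% of all genes.

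**Figure D2:**
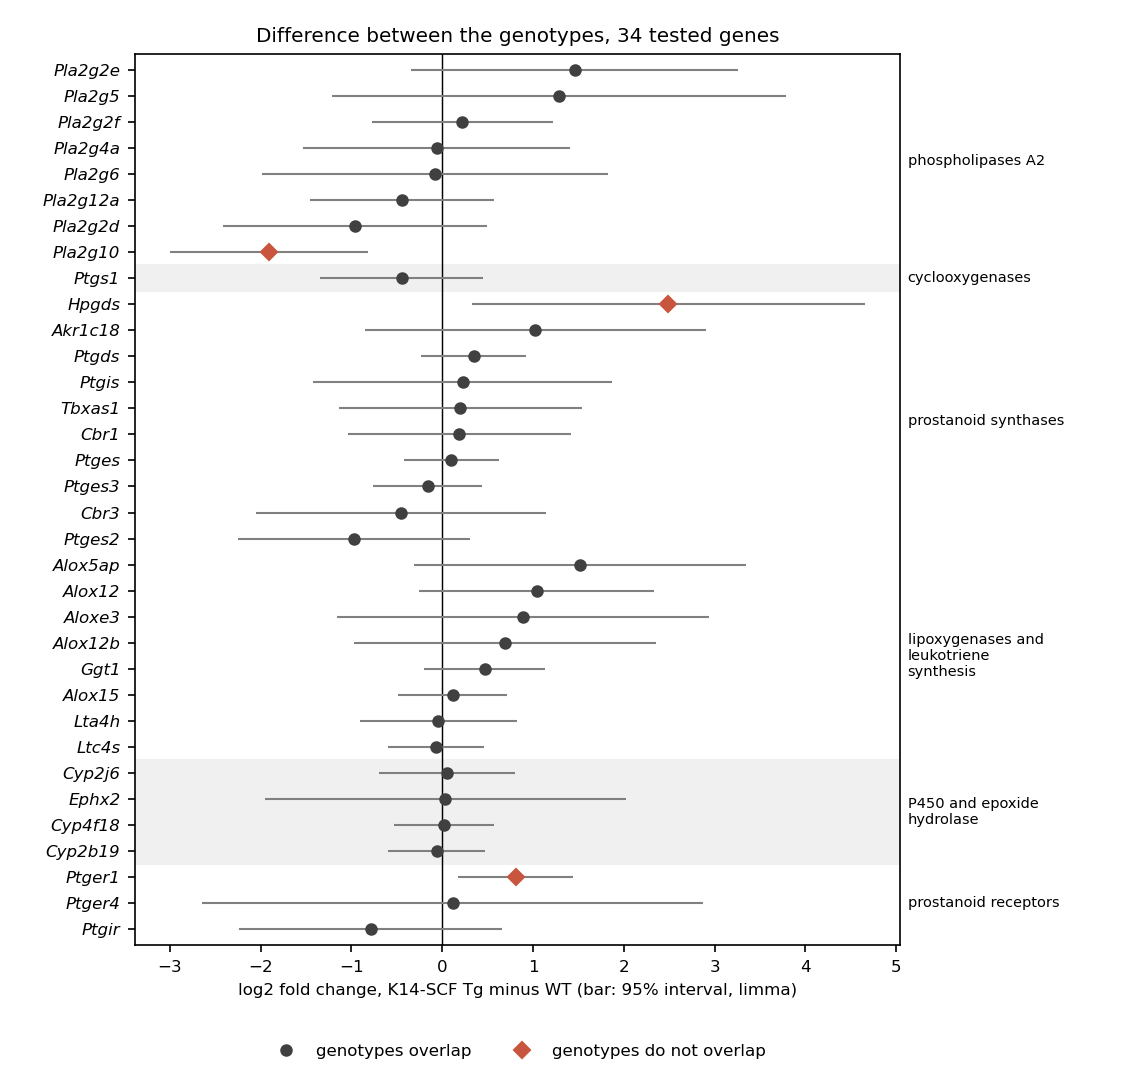
Log2 fold change (K14-SCF Tg minus WT) of the 34 tested genes with its 95% interval from limma, grouped by step of the pathway. Red diamonds mark Hpgds (2.49), Ptger1 (0.81) and Pla2g10 (-1.91), whose values did not overlap between the genotypes; the intervals of all other genes include 0.

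The release step is carried out by phospholipases A2, which cut the fatty acid from membrane lipids. Pla2g10, a secreted enzyme of this family, stood at -1.58, -2.73 and -2.59 on the WT arrays and at -3.56, -4.44 and -4.61 on the Tg arrays. All 3 Tg values lay below the lowest WT value, by 0.84 or more. The log2 fold change was -1.91 (SE 0.45, 95% interval -3.00 to -0.81), and it had the smallest p of the members without passing (limma, adjusted p = 0.619). Fibroblast markers moved the same way: the summed level of the 10 markers lay between 4.71 and 6.16 in WT and between 3.16 and 4.49 in Tg, with 8 of 10 lower and Col1a2, a collagen chain, at 4.50 ± 0.72 in WT against 2.63 ± 0.72 in Tg (SD, n = 3). Their part in the Pla2g10 difference was not tested.

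Pla2g2e and Pla2g2d, secreted phospholipases that lie in one gene cluster with Pla2g2f and Pla2g5, pointed in opposite directions. Pla2g2e was 0.12, -0.21 and -2.29 in WT and 1.03, 1.12 and -0.15 in Tg, where the highest WT value exceeded the lowest Tg value (log2 fold change 1.46, SE 0.73, limma adjusted p = 0.935). In both genotypes replicate 3 was the lowest. The log2 fold change was 0.71 without WT replicate 3 and 1.92 without WT replicate 1. The second Pla2g2e probe gave 0.44 (SE 0.54). Pla2g2d was -2.42, -1.24 and -1.03 in WT and -1.90, -3.57 and -2.12 in Tg (-0.96, SE 0.59, limma adjusted p = 0.956), with the groups overlapping. The second Pla2g2d probe was above background on no array and was not tested. Pla2g5 rested on 1 array: Tg replicate 2 stood at -1.27 and the other 5 arrays between -5.24 and -4.72. Without that array its log2 fold change of 1.29 went to 0.09. At the other Pla2g5 probe, which gave 1.00 (SE 1.47), Tg replicate 2 was the lowest array.

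Pla2g4a encodes the cytosolic phospholipase that is selective for arachidonic acid, and its gene is the direct neighbour of Ptgs2. It stood at -4.40, -3.83 and -5.98 in WT and at -4.81, -5.21 and -4.37 in Tg, a log2 fold change of -0.06 (SE 0.60), with the Tg values inside the WT range. The 95% interval, -1.53 to 1.41, leaves room for more than a 2-fold change either way. Pla2g6, the calcium-independent enzyme, gave -0.08 (SE 0.78), Pla2g12a -0.44 (SE 0.41) and Pla2g2f, an enzyme of the epidermis, 0.22 (SE 0.41).

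Cyclooxygenase signals were weak. Ptgs1, the constitutive enzyme, stood at -4.93, -5.70 and -5.45 in WT and at -5.22, -6.03 and -6.18 in Tg with 2 arrays per genotype above background. The Tg values lay lower on average but overlapped those of WT (log2 fold change -0.44, SE 0.36, limma adjusted p = 0.980). Ptgs2, the inducible enzyme, passed the background test in 2 Tg samples and 0 WT samples. Its signals were -6.86, -7.30 and -7.37 in WT and -5.20, -7.52 and -5.64 in Tg, so Tg replicates 1 and 3 were higher than all others and Tg replicate 2 was the lowest of the 6. Ptgs2 was not tested, and no fold is given, since the Tg mean over the mean of the lowest measurable levels of the WT arrays came to 0.984, under 1.

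Hpgds is the prostaglandin D synthase that needs glutathione and is typical of mast cells and other blood-derived cells. It had the largest log2 fold change of the tested members over all 6 arrays. Pla2g2e exceeded it without WT replicate 1 (or with slide as a block). Pla2g10 did so in size with normexp and quantile normalization, and without Tg replicate 1 (-2.23 against 2.09). Hpgds stood at -6.49, -4.06 and -4.46 in WT, where replicate 1 was not above background, and at -1.70, -1.87 and -3.96 in Tg. Tg replicates 1 and 2 were clearly higher, while Tg replicate 3 exceeded the highest WT array by only 0.10. The log2 fold change was 2.49 (SE 0.88, 95% interval 0.32 to 4.66), and it did not pass (limma, adjusted p = 0.871). It was 1.75 without WT replicate 1, which equals the value within the other slide, 3.49 without both arrays of slide row 2, and 1.41 with normexp background correction and quantile normalization together. Of 7 mast cell markers on the arrays, 2 were above background on all 6 (Cma1 and Tpsb2) and Fcer1a and Ms4a2 on none. Their summed level lay between -1.62 and -0.60 in WT and between -0.76 and -0.53 in Tg and overlapped, with Tpsb2 weighing most in it. Cma1, a mast cell protease, was by itself higher on all 3 Tg arrays (-5.50, -5.10 and -5.07 in WT, -4.70, -5.04 and -4.72 in Tg), with a log2 fold change of 0.40 (SE 0.24, limma adjusted p = 0.953). Tpsb2, another mast cell protease, gave 0.44 and -0.15 at its 2 probes. Of the other markers in the list, Hdc gave -0.18 (SE 1.35) and Mcpt4 0.10 (SE 1.18). Cpa3 was above background on WT replicate 2 only and was not tested. The part of mast cells in the Hpgds difference was not tested.

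Ptgds, the other prostaglandin D synthase, a secreted lipocalin, was measured with a small spread. It stood at 4.0, 4.46 and 4.15 in WT and at 4.69, 4.56 and 4.40 in Tg. The 2 lowest values were WT and the 2 highest Tg, with an overlap of 0.06 between WT replicate 2 and Tg replicate 3 (log2 fold change 0.35, SE 0.24, limma adjusted p = 0.968). Its 95% interval, -0.23 to 0.92, does not reach a 2-fold change.

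**Figure D3:**
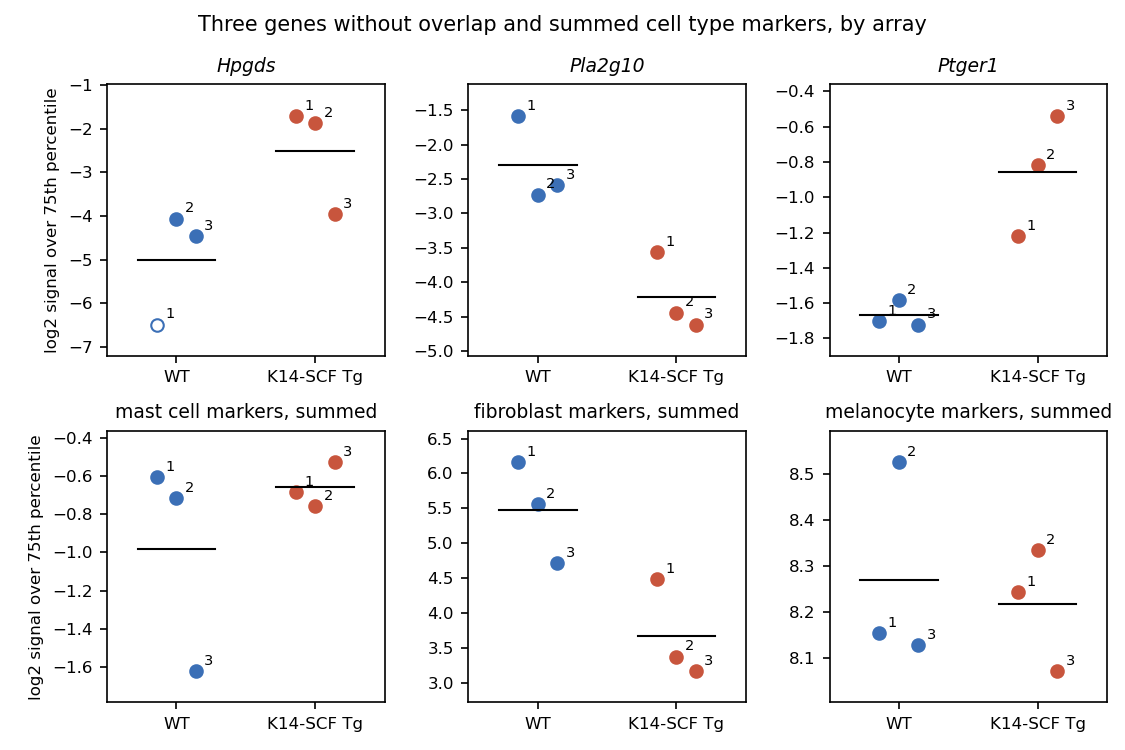
Level on each array (log2 signal over the array's 75th percentile) of Hpgds, Pla2g10 and Ptger1 and, below, of the summed signal of mast cell, fibroblast and melanocyte markers; points are arrays with their replicate number, lines are means of 3 arrays, and the open point was not well above background. The summed fibroblast markers, like Pla2g10, lie lower on all 3 Tg arrays, while the summed mast cell and melanocyte markers overlap between the genotypes.

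Prostaglandin E2 is made by 3 synthases, and their genes behaved differently in spread. Ptges, the inducible membrane-bound synthase, lay within 0.33 over all 6 arrays at its brighter probe (5.05 ± 0.14 in WT and 5.15 ± 0.11 in Tg, SD, n = 3). There its log2 fold change was 0.10 (SE 0.21). Its other probe was far dimmer, at -4.69 ± 0.88 in WT and -3.78 ± 0.86 in Tg, and ranged over 2.53. That probe gave a log2 fold change of 0.91 (SE 0.62), so the 2 probes differ in level and in spread. Ptges3, a cytosolic co-chaperone, had 4 tested probes with log2 fold changes between -0.23 and 0.004. Ptges2, a second membrane-associated enzyme, was 0.04, -0.64 and -1.55 in WT and -1.83, -2.23 and -1.0 in Tg. Tg replicate 3 lay among the WT values and the other 2 Tg arrays below them (log2 fold change -0.97, SE 0.52, limma adjusted p = 0.946). It was -0.59 without WT replicate 1 and -1.73 without both arrays of slide row 2.

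The remaining synthases overlapped between the genotypes. Ptgis, the prostacyclin synthase, gave 0.23 (SE 0.67), and Tbxas1, the thromboxane synthase, 0.20 (SE 0.55). Akr1c18, an aldo-keto reductase, had a log2 fold change of 1.03 (SE 0.76) that came from Tg replicate 1, at -2.26 where the other arrays lay between -5.48 and -4.56. Without that array it was 0.18. The carbonyl reductase genes Cbr1 and Cbr3, direct neighbours, gave 0.19 (SE 0.50) and -0.45 (SE 0.65). Hpgd, the dehydrogenase that inactivates prostaglandins, was not tested: its brighter probe passed the background test in 0 WT and 2 Tg samples (-6.25, -7.33 and -7.69, then -5.15, -6.26 and -7.07), and its other probe in 1 sample of each genotype.

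The lipoxygenase branch had positive log2 fold changes in 6 of its 8 tested genes (median 0.58), and 0 of the 8 were called by limma or had an unadjusted p under 0.05. Alox5ap, which hands arachidonic acid to the leukotriene-forming lipoxygenase, stood at -4.43, -4.65 and -5.19 in WT and at -3.59, -1.63 and -4.50 in Tg. Tg replicate 2 stood far above the rest, and Tg replicate 3 lay among the WT values (log2 fold change 1.52, SE 0.75, limma adjusted p = 0.933). Without Tg replicate 2 it was 0.71. Leukocyte markers, 11 of 12 of them above background on all 6 arrays, had a summed level of 3.76 to 4.59 in WT and 3.99 to 4.33 in Tg, overlapping. This sum is mostly the signal of Cd68, at 3.57, 4.01 and 2.85 in WT and 3.60, 3.97 and 3.69 in Tg. It says little about the dimmer markers. Of the 12 markers, 7 had a positive and 5 a negative log2 fold change. Tyrobp, a signalling adaptor of myeloid cells, did not overlap and was higher in Tg (-5.18, -3.44 and -5.13 in WT, -3.22, -3.39 and -0.09 in Tg). Its log2 fold change was 2.35 (SE 1.02, limma adjusted p = 0.918). Cd74 went the other way, with overlap (-1.61, SE 0.68, limma adjusted p = 0.918). The part of leukocytes in the Alox5ap and Hpgds values was not tested. Alox5, that lipoxygenase itself, was above background only on replicate 2 of each genotype (-5.23 in WT and -4.55 in Tg, with the other arrays between -7.96 and -6.61) and was not tested.

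Further along, Lta4h, which makes leukotriene B4, gave -0.04 (SE 0.35), and Ltc4s, which joins glutathione to the leukotriene, -0.06 (SE 0.22), with all 6 arrays between 0.73 and 1.07. The peptidase gene Ggt1 stood at -4.41, -4.85 and -4.70 in WT and at -4.47, -4.25 and -3.83 in Tg, a small overlap (0.47, SE 0.27, limma adjusted p = 0.949). Its neighbour Ggt5, which trims the same leukotriene, passed the background test in 0 WT and 2 Tg samples and was not tested. Its mean signal was -6.71 in WT and -6.01 in Tg. No bound on the difference is given, since Tg replicate 1, at -6.86, was itself not above background. The size of the difference is unknown.

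Epidermal lipoxygenases form a cluster of direct neighbours, Aloxe3, Alox12b and Alox8. Alox12b, the first enzyme of the barrier pathway, gave 0.69 (SE 0.68) and 0.41 (SE 0.35) at its 2 probes. The 0.69 came from Tg replicate 2, at -0.71 where the other arrays lay between -3.21 and -2.84. At the second probe Tg replicate 2 was the lowest Tg array, at -3.03. Aloxe3, which acts after Alox12b, gave 0.89 (SE 0.84), and Alox8 was above background on no array. Alox12, the platelet-type enzyme, also made by the epidermis, stood at -2.79, -1.92 and -3.85 in WT and at -1.57, -1.62 and -2.24 in Tg. Tg replicates 1 and 2 exceeded every WT array and Tg replicate 3 did not (1.04, SE 0.53, limma adjusted p = 0.936). It was 0.54 without WT replicate 3. The Aloxe3 value of 0.89 was 0.12 without that array and -0.18 without both arrays of slide row 2. Alox15, of the same stretch of the chromosome, gave 0.12 (SE 0.25). The second Alox12 probe was above background on no array and was not tested. The summed level of 8 suprabasal keratinocyte markers lay between 1.66 and 2.30 in WT and between 1.43 and 1.97 in Tg, overlapping, with Sbsn weighing most in it. Of the 7 of them tested, 2 had a positive and 5 a negative log2 fold change. Tgm1, a transglutaminase of the barrier, was higher on all 3 Tg arrays (log2 fold change 0.88, SE 0.32, limma adjusted p = 0.885). Tgm3 was lower on all 3 by a small amount at its brighter probe (-0.16, SE 0.20). At its second probe the genotypes overlapped (-0.14, SE 0.26). The part of keratinocytes in the lipoxygenase values was not tested.

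Genes of the P450 branch, which make or clear epoxides and hydroxylated fatty acids, differed little over all 6 arrays, but Ephx2 did so only with WT replicate 3 included. At the brightest probes all 4 log2 fold changes lay between -0.06 and 0.06. Cyp2j6 gave 0.06 (SE 0.31), Ephx2, the soluble epoxide hydrolase, 0.04 (SE 0.81) and Cyp4f18 0.02 (SE 0.22). Cyp2b19, a P450 of keratinocytes, gave -0.06 (SE 0.22). The second Cyp2j6 probe gave 0.44 (SE 0.84) and ranged over 2.95. Cyp2b19 and Cyp4f18 varied little over the 6 arrays (ranges of 0.35 and 0.38), while Ephx2 ranged over 2.83, with WT replicate 3 at -1.41 and WT replicates 1 and 2 at 1.42 and 1.11. For Cyp2b19 and Cyp4f18 the 95% intervals (-0.59 to 0.47 and -0.53 to 0.57) do not reach a 2-fold change, whereas that of Ephx2 (-1.95 to 2.02) does. Without WT replicate 3, Ephx2 stood at -0.86 with all Tg arrays below the WT arrays left, and without WT replicate 1 at 0.56.

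Of the 3 receptors tested, Ptger1 had the smallest spread. Ptger1, an EP receptor for prostaglandin E2 that raises calcium, stood at -1.70, -1.58 and -1.72 in WT and at -1.22, -0.82 and -0.54 in Tg. All 3 Tg arrays were above all 3 WT arrays, the nearest by 0.36. The log2 fold change was 0.81 (SE 0.26, 95% interval 0.18 to 1.44), which did not pass (limma, adjusted p = 0.818). It was between 0.65 and 0.99 with any 1 array left out.

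The other receptors were dim or variable. Ptger4, the EP receptor that raises cyclic AMP, stood at -3.95, -7.02 and -4.09 in WT and at -3.40, -4.81 and -6.50 in Tg, the widest spread within genotypes of the tested members (SD 1.65), with 2 arrays per genotype above background. WT replicate 2 and Tg replicate 3 were the low arrays, and the log2 fold change of 0.12 had an SE of 1.12 (limma, adjusted p = 1.00). Ptgir, the prostacyclin receptor, gave -0.79 (SE 0.59). Ptger3, another EP receptor, was above background on replicate 2 of each genotype at its brighter probe and on Tg replicate 1 at its other probe, and Ptgdr, the receptor for prostaglandin D2, Ptger2 and Ptgfr, the receptor for prostaglandin F2, on none. Ptgdr and Ptger2 are direct neighbours on their chromosome, with levels between -7.82 and -6.54 and between -7.90 and -6.58.

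Single arrays often set a member's extremes. WT replicate 3 was the lowest of the 6 arrays in 11 of the 34 tested members (32.4%, against 19.6% of all tested genes), among them Aloxe3, Alox12, Cbr1, Ephx2, Pla2g2e and Pla2g4a. Tg replicate 1 was the highest in 9 (26.5%, against 13.5% of all genes). Of 6 members with several tested probes, 5 had the same sign at each probe, and Ptges3 did not.

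Other genes of the pathway were read from 3 further lists, 48 tested of 55. By limma 0 were called, 1 had an unadjusted p under 0.05 with a higher and 1 with a lower level in Tg, and the median log2 fold change was 0.10. Ptgr1, a reductase that inactivates leukotriene B4 and prostaglandin metabolites, had the smallest p: it stood at 2.80, 2.76 and 2.22 in WT and at 0.16, 1.30 and -0.02 in Tg. All 3 Tg arrays lay below all 3 WT arrays, by 0.92 or more (log2 fold change -2.12, SE 0.42, limma adjusted p = 0.563). The fibroblast markers given beside Pla2g10 were lower on the same arrays, and their part in this was not tested either. Ptgfrn, a membrane protein known as a negative regulator of the prostaglandin F2 receptor, gave 0.76 (SE 0.25) without overlap, and the prostaglandin transporter Slco2a1 1.04 (SE 0.54). In the other 2 lists the smallest p-values belonged to Fads1 (0.64), Acsl4 (-0.29) and Pla2g7 (-0.51), which handle fatty acids and phospholipids, and to Cyp4a10 (1.12), Alox12e (-2.52) and Dpep1 (1.47), with 0 genes at an unadjusted p under 0.05 in either list.

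**Figure D4:**
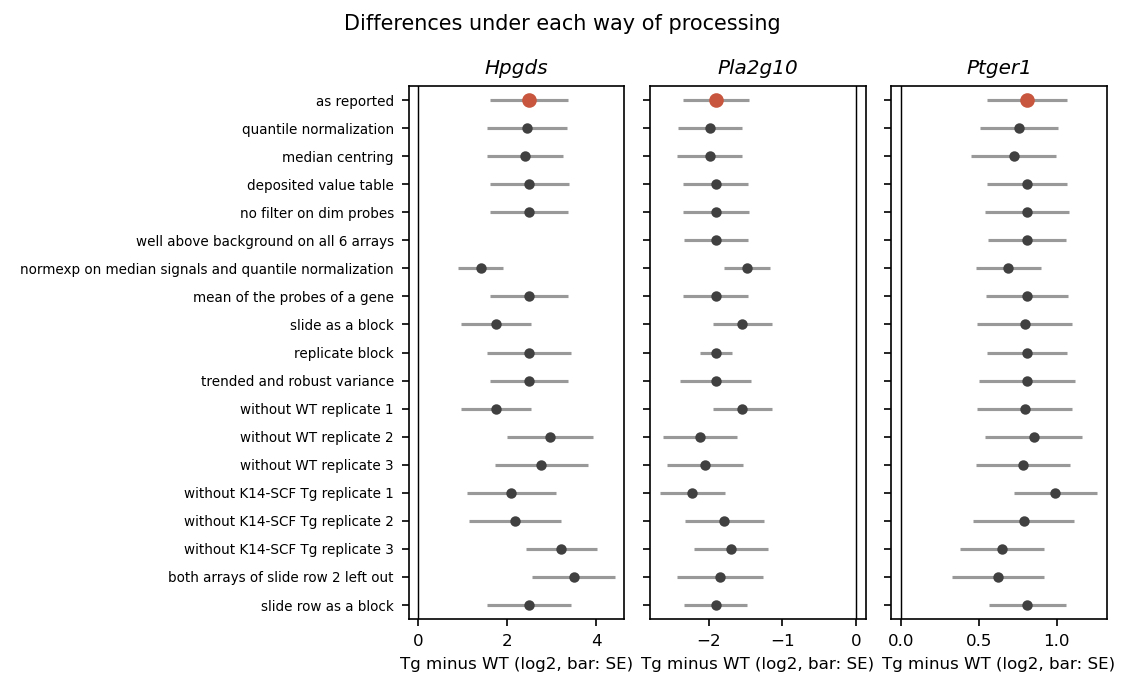
Log2 fold change (K14-SCF Tg minus WT) of Hpgds, Pla2g10 and Ptger1 as reported (red) and under 18 other ways of processing the arrays, with bars of 1 SE. All values keep the sign reported, from 1.41 to 3.49, from -2.23 to -1.48 and from 0.62 to 0.99; Hpgds has no value where all 6 arrays had to be above background.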

How the data were processed

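The arrays were quantified in Agilent Feature Extraction, version 10.7.1.1, per the file headers, with a probe design on build mm9. The intensity values used are the deposited processed signal (background-subtracted and detrended within the array, per the file headers) and the median signals of spot and background. The 0 or 1 flags per spot were taken as deposited. The authors' deposited value table is a linear ratio, the processed signal over 1 constant per array (column medians 0.169 to 0.188); its constant lies near the 75th percentile and is not defined in the sources used here.

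Control and outlier spots were left out, spots of a probe were averaged, and log2 of the signal over the array's 75th percentile was taken. Probes above background on at least 3 of 6 arrays were tested, 47709 in all. RefSeq accessions named genes through a table of GRCm38.p6: 28331 of 29786 matched. A gene was read from its brightest tested probe. The genotypes were compared with limma (version 3.58.1, R 4.3.3), 2-sided and without covariates, and the p-values of every tested probe were adjusted together (Benjamini-Hochberg). The script was tested on simulated data.

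The members and lists were chosen with earlier results of these data known. Every member is named. Full values were given for members without overlap, the 10 with the smallest p, and Ptgs1, Ptgs2, Ptgds, Ptger4, Pla2g4a, Alox5 and Hpgd as textbook genes. Of each further list the 3 genes with the smallest p are named. Of the fixed lists, Pla2g2a, Cyp2c44, Tpsab1, Loricrin and Flg matched no probe and were not analysed here. Replicate numbers were not taken to pair samples: deviations of same-numbered arrays correlated at 0.02, 0.05 and 0.13.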

Additional observations from a re-analysis of the deposited data

How the results depend on the processing

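Over 18 alternatives (16 planned and, chosen after seeing the data, slide row as a block and both arrays of slide row 2 left out), 0 members were called in any (limma, lowest adjusted p = 0.566), and 18 of the 34 tested members kept one sign throughout. Where arrays were left out, a gene was read from its brightest probe on the arrays left. Alox12b, counted among the 18, was therefore read from its other probe without Tg replicate 2. At the probe read over all 6 arrays its sign was not kept: Tg replicates 1 and 3 stood at -3.21 and -2.86. The WT arrays stood at -3.17, -2.84 and -2.85 there, higher on average. The median of the members ran from -0.05 (without Tg replicate 1) to 0.24 (without Tg replicate 3). The count of members without overlap was 3, with 4 under quantile normalization (also with normexp), 2 with all 6 arrays above background, and between 5 and 10 with 1 array left out, where the share among all genes rose too (18.1% to 23.1%). It was 14 without both arrays of slide row 2 (36.3% of all genes). The 1 gene called over all genes became 0 with all 6 arrays above background, normexp with quantile normalization, the mean of a gene's probes, slide as a block, the trended and robust variance, slide row as a block, both arrays of row 2 left out, and any 1 array left out (0 to 0). It also became 0 with the replicate block, which changed no call of a member and left the members without overlap at 3 and their median at 0.11. The cause of these changes was not tested. The other 16 tested members took both signs. Of those given in full, signs turned for Pla2g4a, to 0.11 with slide as a block or without WT replicate 1, 0.39 without WT replicate 2 and 0.15 without Tg replicate 2, with a range of -0.68 to 0.39 over the arrays left out, and for Ptger4, to -0.88 without WT replicate 2 and -0.64 without Tg replicate 1, with a range of -0.88 to 0.92. Hpgds, Pla2g2f, Pla2g4a, Ptger4 and Ptgs1 have no value where all 6 arrays had to be above background. Dim members limit what can be seen: 5 were above background on 2 arrays only.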
